A study of Drosophila melanogaster with 3 samples.

Results

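Most places where the crp protein was recovered at the promoter of a single gene had no CAGCTG, the site of its protein family, at the point of highest signal. These peaks are described here. A peak was taken as a member when its summit fell no more than 500 bp from where transcription of a protein-coding gene begins, that start was no more than 500 bp from the most upstream start of its gene, genes on opposite strands did not both start within 500 bp, and no CAGCTG lay whole within 50 bp of the summit. Members numbered 1307 of the 5460 peaks in the authors' final list, kept by the irreproducible discovery rate (IDR, which asks whether the replicates rank a peak alike). They made up 23.9% of all IDR peaks, 32.9% of the 3975 promoter peaks and 66.7% of the 1961 single-gene promoter peaks, the other 654 of which held CAGCTG. The members lay at 1217 genes, and 90 of these genes had 2 members. The data were chromatin immunoprecipitation with sequencing from a transgenic Drosophila melanogaster line, crp-GFP, in which crp carries green fluorescent protein at its C terminus, precipitated through that tag. Whole embryos of both sexes, 0 to 24 h old, gave 3 biological replicates, all of this 1 genotype, so stages and tissues are mixed and there is no second group to compare. The labels do not say whether the tagged gene was the native copy or an added one, and a control library was not analysed here.

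crp (cropped) encodes a basic helix-loop-helix protein, the Drosophila relative of AP-4, and proteins of this kind bind as dimers to E-boxes, of which CAGCTG is the AP-4 form. Promoters of widely expressed fly genes carry another set of sites: the DNA replication-related element (DRE) bound by DREF, the shorter CGATA bound by the insulator protein BEAF-32 and by DREF, the site of the motif 1 binding protein M1BP, and the core promoter elements known as motif 6 and motif 7. Genes switched on in particular tissues or stages more often use a TATA box or an initiator with a downstream promoter element, and GAGA sites, bound by GAGA factor and CLAMP, are known from promoters with paused polymerase.

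The kinds of sequence found at members are shown by 8 of them, read from the RefSeq copy of the dm6 assembly in the direction of the gene, upstream of the start and outside annotated exons. Capitals mark CAGCTG and CATATG, the DRE (TATCGATA), the M1BP site (GGTCACACT), motif 6 (GGTATTTT) and motif 7 (CAGCNCTA or CATCNCTA), on either strand. At Tpr2 (chr2L:16491282-16491410, plus strand) and mRpL14 (chrX:2344650-2344726, minus strand) CAGCTG lay just beyond the 50 bp limit. CG31957 (chr2L:3872459-3872538, minus strand), Vps15 (chr3R:9245870-9245978, minus strand), PolA1 (chr3R:21671751-21671838, minus strand), eIF2alpha (chrX:16446994-16447078, minus strand) and RpL27 (chr3R:25685052-25685150, minus strand) carried sites of housekeeping promoters. Of these, CG31957 and Vps15 also had CAGCTG just beyond the limit, at 58 and 57 bp, outside the stretch printed. IleRS-m (chr3L:16100200-16100279, plus strand) had CATATG, and no CAGCTG within 400 bp of its summit. In mRpL14 the capitals of CATATG and motif 6 run into each other. A match of letters describes the sequence and does not show that a protein sat there.
Tpr2: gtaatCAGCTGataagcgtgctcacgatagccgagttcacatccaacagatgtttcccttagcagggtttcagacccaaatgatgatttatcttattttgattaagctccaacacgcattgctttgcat
mRpL14: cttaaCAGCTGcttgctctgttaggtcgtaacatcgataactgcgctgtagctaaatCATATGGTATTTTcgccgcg
CG31957: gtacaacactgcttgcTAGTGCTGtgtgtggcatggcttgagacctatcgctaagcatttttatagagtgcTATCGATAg
Vps15: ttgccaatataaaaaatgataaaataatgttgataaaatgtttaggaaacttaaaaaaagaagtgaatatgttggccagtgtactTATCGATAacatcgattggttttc
PolA1: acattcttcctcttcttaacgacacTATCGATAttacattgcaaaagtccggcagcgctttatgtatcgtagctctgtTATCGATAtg
eIF2alpha: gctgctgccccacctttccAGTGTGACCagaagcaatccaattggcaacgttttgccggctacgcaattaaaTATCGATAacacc
RpL27: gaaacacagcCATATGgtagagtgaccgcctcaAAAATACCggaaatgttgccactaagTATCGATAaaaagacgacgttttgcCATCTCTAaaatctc
IleRS-m: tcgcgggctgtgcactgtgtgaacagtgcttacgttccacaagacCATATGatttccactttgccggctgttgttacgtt

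The lists behind these peaks held 30000, 28713 and 30000 relaxed peaks in replicates 1, 2 and 3 and 28145 in the pool. The depth of each sample is unknown, and the signal of a peak is the authors' own value on the scale of their peak caller. Relative signal means that value divided by the median of the 5460 strongest peaks of the same list, so values are read within a list. A member was called found in a replicate when a summit lay within 100 bp among that replicate's 5460 strongest peaks. Because the IDR list was made from the same replicates, such matches are partly built in.

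Members recurred between replicates less often than single-gene peaks with CAGCTG. Replicates 1, 2 and 3 held 70.8%, 75.5% and 76.8% of the members among their strongest peaks, a mean of 74.4% ± 3.18 (SD, n = 3), against 90.2%, 84.1% and 98.0% of the peaks with CAGCTG. Each replicate thus held a smaller share of the members. All 3 replicates held 627 members (48.0%, 95% Wilson interval 45.3 to 50.7, which covers counting error only), against 522 of 654 with CAGCTG (79.8%, 76.6 to 82.7). In the full replicate lists 1024 members (78.3%) were found in all 3 and 4 in none. Recurrence followed the strength of the peak: 95.02% of the strongest quintile of members were found in all 3 replicates, and 2.68% of the weakest quintile. Without replicate 1, 2 or 3 the share found in the remaining pair was 57.15%, 61.4% and 54.9%.

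The summits of the single replicates also lacked CAGCTG. At the matched summits of replicates 1, 2 and 3, CAGCTG lay within 50 bp for 3.34%, 2.00% and 5.48% of members, a mean of 3.61% ± 1.76 (SD, n = 3). For the peaks with CAGCTG the same count gave 89.0%, 88.2% and 96.4%. The classes did not overlap in any replicate, which the rule fixes in part, since the IDR summits come from the same replicates. The summits moved more between lists at members, by a median of 20, 9 and 16 bp in the 3 replicates against 8, 6 and 4 bp. In the IDR list 30.2% of members had their summit at the exact centre of the peak, against 9.17% of peaks with CAGCTG, and the part of this in the result was not tested.

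Members were weaker than single-gene peaks with CAGCTG. With both classes built anew in each replicate, the median relative signal of members was 0.826, 0.929 and 0.785 in replicates 1, 2 and 3, and that of peaks with CAGCTG was 3.89, 4.21 and 4.03. No replicate of one class reached the other. The log2 ratio of members to peaks with CAGCTG was -2.26 ± 0.09 (SD, n = 3), and the exact two-sided sign-flip permutation test gave p = 0.25, the smallest that 3 replicates allow. Members accounted for 113 single-gene promoter peaks in the strongest quintile of the IDR list, where 355 had CAGCTG, and for 298 in the weakest quintile, where 40 had it. The share of members among single-gene peaks was thus 24.1% (20.5 to 28.2) in the strongest quintile and 88.2% (84.3 to 91.2) in the weakest.

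The strongest members nevertheless included some of the strongest crp peaks of the genome, though most of these members had CAGCTG at 51 to 100 bp from the summit. Tpr2, whose product is a co-chaperone of the Hsp70 and Hsp90 system, had relative signals of 39.3, 45.9 and 44.0 in replicates 1, 2 and 3 (43.1 ± 3.42, SD, n = 3), and its peak ranked 2 in the IDR list. CG34250 had 22.2, 19.0 and 23.9 and stood at rank 37. coro, which encodes the actin-binding protein coronin, had 18.7, 24.1 and 19.35. These 3 genes kept high values in every replicate, and Tpr2 lay above the other two in each.

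Next came Nuak, which encodes a kinase related to AMPK, with 19.6, 21.05 and 17.7, and tko, the gene of a mitochondrial ribosomal protein, with 16.3, 21.45 and 18.7. CG2017 had 11.4, 17.45 and 14.6 and was the strongest member with no CAGCTG within 400 bp of its summit. Cog8, a subunit of the COG complex that tethers vesicles at the Golgi, had 10.5, 18.15 and 13.5. The other 8 of the 15 strongest members found in all replicates were CG7083, CG12713, CG31957, Tpc1, Trpm, CG4293, Sps2 and Polr1E. Tpc1 encodes a mitochondrial thiamine pyrophosphate carrier, Trpm a cation channel, Sps2 a selenophosphate synthetase and Polr1E a subunit of RNA polymerase I. Their mean relative signals lay between 12.1 ± 1.89 for Polr1E and 14.8 ± 2.28 for CG7083 (SD, n = 3). Of these 15 members, CG2017 and Polr1E had no CAGCTG within 400 bp of the summit. CG34250 had its nearest at 137 bp, and the others had theirs at 52 to 77 bp.

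Over all members the signal divided by the IDR median ran from 0.456 to 50.6, with a median of 0.848, and 90% of members lay at or below 3.13.

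At the strongest members CAGCTG often lay a little farther out, and members with a site at 51 to 100 bp were stronger than those with none within 400 bp. The distance is counted from the summit to the far end of the site. Among members, 165 had their nearest CAGCTG at 51 to 100 bp, 194 at 101 to 200 bp and 230 at 201 to 400 bp, while 718 (54.9%) had none within 400 bp. Of the 25 strongest members 19 had a site at 51 to 100 bp, as did 31 of the 50 strongest and 47 of the 100 strongest, against 12.6% (10.9 to 14.5) of all members. In successive rings of 50 bp from 101 bp outward the share of members with a site was 7.88%, 9.41%, 10.3%, 6.66%, 4.51% and 4.90%.

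The median relative signal of the 165 members with a site at 51 to 100 bp was 1.40, 1.495 and 1.73 in replicates 1, 2 and 3, taken over matched peaks. That of members with none within 400 bp was 0.632, 0.861 and 0.608. The values did not overlap. The mean log2 difference was 1.15 ± 0.36 (SD, n = 3), a fold of 2.22, with an exact sign-flip permutation p of 0.25, the smallest possible. At 101 to 200 bp the medians were 1.02, 0.744 and 1.18, and at 201 to 400 bp 0.798, 0.813 and 0.813, and the ranges of both overlapped with that of members without a site. Peaks with CAGCTG inside 50 bp, matched in the same way, had 3.91, 3.39 and 5.53. This comparison was chosen after the values had been seen.

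**Figure D1:**
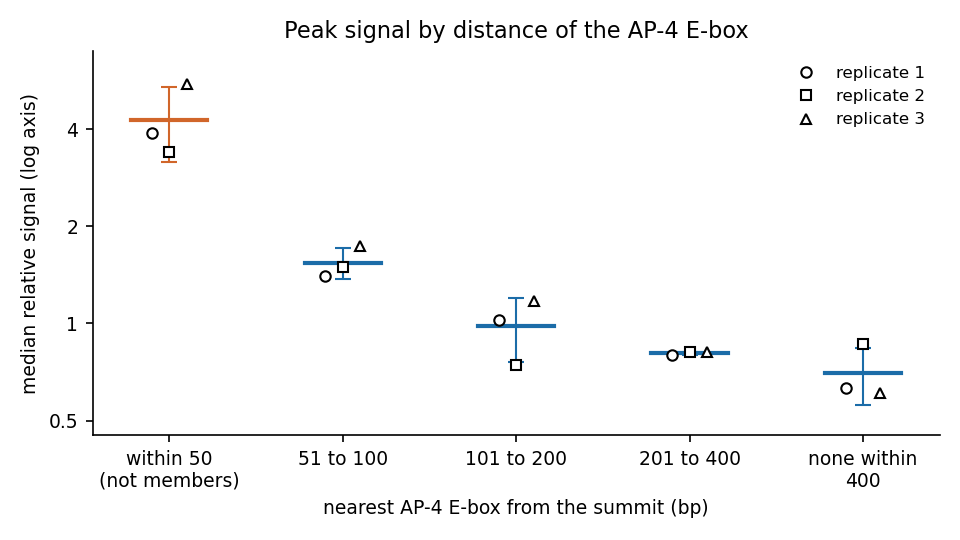
Median relative signal (log axis) in the 3 replicates, for IDR peaks at single-gene promoters grouped by the distance in bp from the summit to the nearest AP-4 E-box. Symbols are replicates, horizontal lines their mean and vertical bars the SD; the mean falls from 4.27 within 50 bp to 1.54 at 51 to 100 bp and 0.700 where no site lies within 400 bp.

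Peaks on both sides of the limits were picked by smallest distance to the limit and then by highest signal. High values of those named at the 50 bp limit therefore follow from the choice. Just beyond it, with a site at 51 bp, were CG14130 (10.9, 9.545 and 13.0) and mRpL14, which encodes a mitochondrial ribosomal protein (7.465, 5.11 and 9.998). Just within it and so not members, with a site at 50 bp, were MESR6 (14.85, 16.7 and 17.7) and fal (12.7, 12.8 and 13.7). At the limit of 500 bp from the start, a peak of Gart, a gene of purine synthesis, lay inside at -498 bp (0.757 in replicate 1 and 1.07 in replicate 3, with no match in replicate 2) and one of omd at 495 bp (0.489, 0.541 and 0.295). Peaks of CG3919 at 503 bp (0.854, 0.0914 and 0.455) and of CG10479 at -504 bp (0.845, 1.496 and 0.332) lay outside. These neighbours are a description, with no test. With the limit for CAGCTG at 25 bp there were 1552 members and at 100 bp 1142.

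Another E-box, CATATG, accompanied the stronger members. It differs from CAGCTG in the centre only. CATATG lay within 50 bp of 81 member summits (6.20%), against 2.29% of the summits with CAGCTG. Its share was 14.9% in the strongest quintile of members and 3.82%, 5.75%, 3.05% and 3.45% in the following quintiles. Examples are sicily, which encodes a chaperone for respiratory complex I (8.91, 10.9 and 12.8 in replicates 1, 2 and 3), the cell adhesion gene Lac (9.14, 12.9 and 8.99), the transcription factor gene Camta (8.46, 10.9 and 8.59), and the ribosomal protein gene RpS23 (8.05, 7.95 and 11.1). These were picked as the strongest members with the site, after their values were seen.

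The median relative signal with CATATG was 1.964, 1.90 and 1.67 in replicates 1, 2 and 3, and without it 0.704, 0.846 and 0.763. The values did not overlap, with a mean log2 difference of 1.26 ± 0.19 (SD, n = 3; exact sign-flip permutation p = 0.25, the smallest possible). CAGCTG at 51 to 100 bp was shared by 5 of the 81 peaks, and 49 had no CAGCTG within 400 bp. Within the members that had none within 400 bp, those with CATATG had medians of 2.11, 1.90 and 2.14 and those without it 0.617, 0.832 and 0.592, a mean log2 difference of 1.60 ± 0.36 (SD, n = 3; exact permutation p = 0.25). The difference was therefore as large where CAGCTG was absent from the surroundings. IleRS-m, the mitochondrial isoleucyl-tRNA synthetase gene shown above, had 6.998, 5.52 and 9.305.

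**Figure D2:**
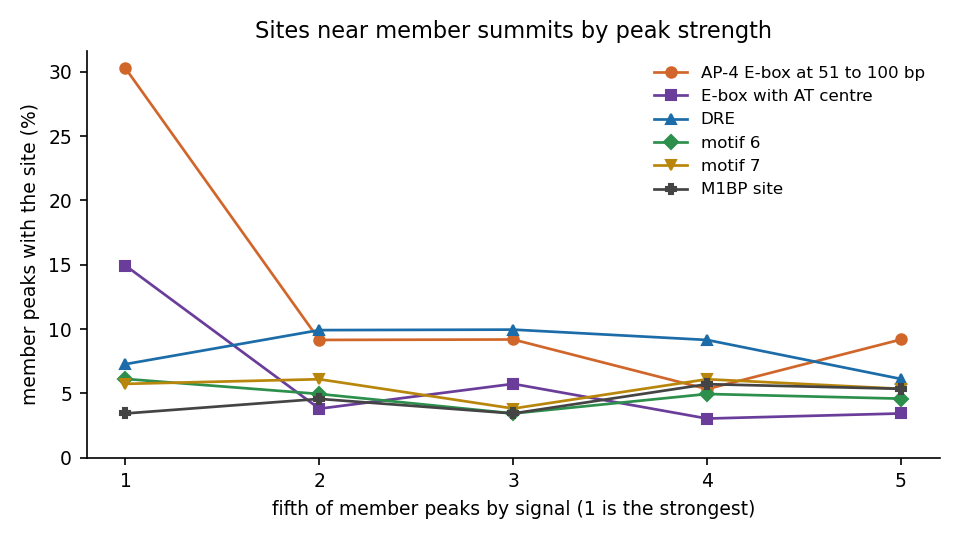
Share of members (in percent) with each site near the summit, by quintile of the members ranked on signal in the IDR list, the strongest first. The AP-4 E-box is counted at 51 to 100 bp and every other site within 50 bp. The line labelled E-box with AT centre is CATATG, whose centre reads TA. Between the first 2 quintiles the AP-4 E-box falls from 30.3% to 9.16% and CATATG from 14.9% to 3.82%. DRE stays between 6.13% and 9.96%.

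Promoters with a member carried the sites of housekeeping promoters far more often than single-gene promoters without a crp peak. The latter numbered 3840. They had no summit of any list, relaxed lists included, within 500 bp of any start of the gene, and no start on the opposite strand within 500 bp. The window ran from 200 bp before to 50 bp after the most upstream start, on both strands. Each motif entered a logistic regression of class on its presence with the G+C percent of the window as a covariate, and the p-values of the likelihood ratio test (chi-square) were adjusted over 29 motifs by the Benjamini-Hochberg method. Promoters, not samples, are the units of these p-values. Of the 29 motifs 12 (41.4%) were more frequent at members and 6 (20.7%) less frequent.

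The DRE was at 185 of 1217 member promoters (15.2%, 13.3 to 17.3) and at 69 of the 3840 without a peak (1.80%), a log2 odds ratio of 3.28 (adjusted chi-square p = 2.9e-61). The same rule applied to the strongest peaks of replicates 1, 2 and 3 gave 15.1%, 13.8% and 15.8%. CGATA, which the DRE contains, was at 51.7% against 31.5% (log2 odds ratio 1.21, adjusted chi-square p = 7.5e-35). The replicates lay close to the IDR list and apart from the promoters without a peak. This closeness is partly built in, since the IDR list was made from the same replicates.

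The M1BP site was at 117 members (9.61%, 8.08 to 11.4) and 17 promoters without a peak (0.443%), the highest ratio of the scan (log2 odds ratio 4.56, adjusted chi-square p = 4.5e-54), with 9.30%, 9.11% and 9.86% in the replicates. Motif 6 was at 7.64% against 1.69% (log2 odds ratio 2.23, adjusted chi-square p = 6.7e-20; replicates 8.76%, 7.79% and 8.49%). Motif 7 was at 12.6% against 4.04% (log2 odds ratio 1.76, adjusted chi-square p = 1.5e-22; replicates 12.2%, 12.6% and 12.8%). Over all 10003 single-gene promoters of distinct start, with or without a peak, the shares were 6.09% for the DRE, 3.77% for the M1BP site, 3.80% for motif 6 and 6.57% for motif 7. They were 6.13% for the GAGA site, 5.60% for the E2F site and 6.44% for CATATG.

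At least 1 of the DRE, the M1BP site, motif 6 and motif 7 was at 454 member promoters (37.3%, 34.6 to 40.1), against 266 without a peak (6.93%). The replicates gave 37.6%, 36.3% and 39.1%, a mean of 37.7% ± 1.44 (SD, n = 3). At least 2 of the 4 were at 6.82% against 1.04%. RpL27, a large-subunit ribosomal protein gene, held a DRE, motif 6, motif 7 and CATATG in the stretch printed above, and eIF2alpha, a subunit of the initiation factor that brings the initiator tRNA, held a DRE and an M1BP site. The other member promoters held none of these 4 sites in the window.

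**Figure D3:**
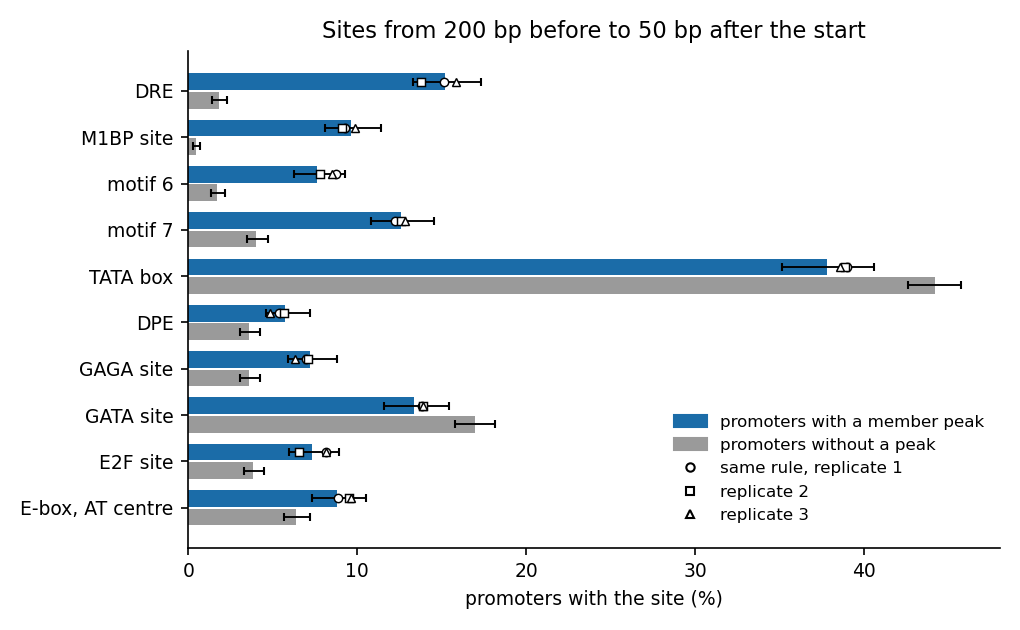
Percent of single-gene promoters with each site in the window, for the 1217 promoters with a member and the 3840 without a peak; bars are shares, error bars 95% Wilson intervals, and symbols the same rule applied to the strongest peaks of each replicate. The DRE stands at 15.2% against 1.80% and the M1BP site at 9.61% against 0.443%, while the TATA box stands at 37.8% against 44.2%. The DPE is sought from 15 to 40 bp after the start only. The TATA box is the letters TATAAA anywhere in the window, on either strand. The row labelled E-box, AT centre is CATATG, whose centre reads TA.

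Other sites differed less. The GAGA site GAGAGAG was at 7.23% of members against 3.62% (log2 odds ratio 1.21, adjusted chi-square p = 9.1e-08), the E2F site (TTTGGCGC, TTTCGCGC, TTTCCCGC or TTTGCCGC) at 7.31% against 3.85% (1.06, adjusted chi-square p = 1.3e-06) and the downstream promoter element (AGACGT or GGACGT or AGTCGT or GGTCGT or AGATGT or GGTTGT, on the strand of the gene) at 5.75% against 3.62% (0.76, adjusted chi-square p = 0.0020), by the same logistic regression. CATATG was at 8.79% against 6.41% (0.47, adjusted chi-square p = 0.018). The TATA box TATAAA was less frequent, at 37.8% against 44.2% (-0.46, adjusted chi-square p = 1.1e-05), and in the window from 100 bp before to 50 bp after the start it was at 16.3% against 33.0% (-1.23, adjusted chi-square p = 3.0e-25). These letters were sought anywhere in the window on both strands, so a match need not be a TATA box. Within 200 bp of member summits their median position was -133.5 bp from the start, with quartiles at -210 and -29 bp. The GATA site AGATAA (13.4% against 17.0%, adjusted chi-square p = 0.0021), the Zelda site CAGGTAG (0.740% against 1.67%, adjusted chi-square p = 0.034) and the E-box CAACTG (14.4% against 21.6%) were also less frequent.

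The calls for the CREB site TGACGTCA (0.575% against 0.182%), the CA repeat CACACACA (4.27% against 3.12%) and the E-box CACATG (9.37% against 7.40%), each with an adjusted chi-square p between 0.042 and 0.049, ended in several alternatives. Those for CATATG and the GATA site ended in a window of 250 bp on either side (adjusted chi-square p = 0.077 and 0.12), and that for the GATA site also among the 2730 strongest IDR peaks (adjusted chi-square p = 0.063). The calls ended in at least 1 alternative for the downstream element, the TATA box, the Zelda site, CAAGTG (11.6% against 16.6%) and CAAATG (21.45% against 25.2%). Those for the DRE, CGATA, the M1BP site, motif 6, motif 7, the GAGA site, the E2F site and CAACTG were kept in each of the 11 alternatives. CAGCTG itself was at 18.6% of member promoters and 7.97% of those without a peak, given without a test because the rule used it. The initiator (TCAGTT or TCAGTC or TCATTT or TCATTC at the start, 8.79% against 11.1%) and the TCT initiator of ribosomal protein genes (CCTTTC or TCTTTC, 0.904% against 0.417%) missed the threshold, both with an adjusted chi-square p of 0.076. The initiator was called less frequent in 6 of the 11 alternatives, with an adjusted chi-square p between 0.00012 and 0.19 over all of them. The TCT initiator was called more frequent in 2, with the nearest start and with no CAGCTG within 400 bp (adjusted chi-square p = 0.023 and 0.040). The threshold was also missed by the Grainy head site AACCGGTT, the Ets site CCGGAAG, the NRF-1 site GCATGCGC, the Pleiohomeotic site GCCATNTT, a run of A (AAAAAAAA) and the E-boxes CACGTG (4.11% against 2.94%), CAATTG (8.96% against 10.8%), CAGATG (11.2% against 10.2%) and CAGGTG (7.64% against 8.83%). Some of these passed in alternatives. CACGTG was called more frequent in the shorter and longer windows, among the 2730 peaks and without replicate 3 (adjusted chi-square p = 0.0078, 0.0043, 0.025 and 0.013). So was CAGATG in the shorter window, among the 2730 peaks and without replicate 1 (0.0071, 0.025 and 0.049). CAATTG with no CAGCTG within 400 bp and the run of A without replicate 2 were called less frequent (0.037 and 0.036).

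The size of these ratios depended on which promoters stood for the unbound ones. With all 7902 single-gene promoters that lacked an IDR summit, many of which have a relaxed peak, the DRE was at 4.10% of them, the M1BP site at 2.63% and motif 6 at 2.95%. The log2 odds ratios of these sites then were 1.95, 1.86 and 1.32, in place of 3.28, 4.56 and 2.23, and each remained past the threshold. These lists do not show which genes were active in the embryos, and the part of gene activity in the difference was not tested. The G+C percent of the window was alike, with medians of 38 at members and 38.4 without a peak.

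No other single motif passed the adjusted threshold between members and single-gene promoters with CAGCTG at the summit. In the same logistic regression against 535 such promoters, chosen after the first results were seen, 0 of 29 motifs (0%) were more frequent at members and 0 (0%) less frequent after adjustment. At an unadjusted chi-square p under 0.05 there were 1 and 2, the M1BP site, at 9.61% against 5.42% (log2 odds ratio 0.87, adjusted chi-square p = 0.097), and the E2F and NRF-1 sites, which were less frequent at members (adjusted chi-square p = 0.23 for both). The DRE was at 15.2% and 12.7% and motif 6 at 7.64% and 6.92%. At least 1 of the 4 housekeeping sites was at 37.3% of members and 29.7% (26.0 to 33.7) of the promoters with CAGCTG. The intervals of this combined share, 34.6 to 40.1 at members, did not overlap, and the difference was not tested. A p that misses the threshold does not show that the classes are alike.

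The housekeeping sites lay close to the summits of members. Of the 200 members with a DRE within 200 bp of the summit, 113 had its centre within 50 bp, and the median distance was 40 bp. The median was 43.5 bp for motif 6, 49 bp for the M1BP site and 62.5 bp for motif 7, against 85.5 bp for the TATA box and 96 bp for the GAGA site. Relative to the start the M1BP site had a median position of -5 bp, motif 7 of -14.5 bp, the DRE of -38.5 bp and motif 6 of -45.5 bp. Such sites were not particular to members. A DRE lay within 50 bp of 8.49% of member summits and 9.33% of summits with CAGCTG. The shares were 4.82% and 3.98% for motif 6, 4.51% and 3.52% for the M1BP site and 5.43% and 5.35% for motif 7. These shares were not tested.

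A housekeeping site at the summit did not go with a stronger peak in the way that CATATG did. Members with a DRE within 50 bp had a mean of the replicate medians of 0.814 ± 0.033 (SD, n = 3) and those without it 0.792 ± 0.073. For the M1BP site the values were 0.717 ± 0.044 and 0.795 ± 0.073, for motif 6 0.875 ± 0.043 and 0.790 ± 0.072, and for motif 7 0.773 ± 0.112 and 0.792 ± 0.069. No test was run on these. Sps2 (12.1, 10.3 and 15.7 in replicates 1, 2 and 3) and PolA1, for the catalytic subunit of DNA polymerase alpha (0.340, 0.639 and 0.552), both had a DRE within 50 bp and span much of the range. Sps2 also had CAGCTG at 53 bp, and PolA1 had its nearest at 219 bp.

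The scan of all 2079 hexamers other than CAGCTG, by the same regression with its own Benjamini-Hochberg adjustment, was led by parts of the same sites. At members 295 hexamers (14.2%) were more frequent and 427 (20.5%) less frequent. TATCGA, a part of the DRE, came first, at 35.99% of members against 12.7% (log2 odds ratio 1.95, adjusted chi-square p = 1.6e-62), followed by CGATAG (26.9% against 7.55%) and ATCGAT (30.2% against 10.4%). ACACTG (24.3% against 9.69%), GGTCAC (18.2% against 5.83%) and CACACT (25.1% against 12.2%) came next with AAAATA (63.3% against 45.2%). GGTCAC and CACACT are parts of the M1BP site. Among the less frequent hexamers AACTGA led, at 18.0% against 29.0% (-0.88, adjusted chi-square p = 1.5e-12). Of 7 hexamers that share 5 letters in a row with CAGCTG, 2 were more frequent, ACAGCT (18.7% against 11.1%) and AGCTGA (18.3% against 12.6%), and 1, AAGCTG, less frequent (11.0% against 14.1%).

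Cytosolic ribosomal protein genes held members more often than protein-coding genes as a whole, by their shares. Of 13968 protein-coding genes 1217 (8.71%) had a member. Of 93 cytosolic ribosomal protein genes 33 did (35.5%, 26.5 to 45.6), while 2 had a single-gene peak with CAGCTG. These 33 were members among the 56 of the list whose most upstream start has no opposite start within 500 bp. The strongest were RpS23, named above, RpL27 (3.6, 3.91 and 3.46 in replicates 1, 2 and 3) and RpL23A (1.48, 3.02 and 1.15). The RpS23 summit lay at -457 bp, near the limit of 500 bp from the start. RpL27 varied little between replicates, and RpL23A was highest in replicate 2. Without replicate 1, 2 or 3 the share of ribosomal protein genes was 28.0%, 23.7% and 21.5%, beside 5.37%, 6.52% and 5.32% of all genes. Mitochondrial ribosomal protein genes had 9 of 73 (12.3%).

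Of 44 translation initiation factor genes 10 had a member (22.7%), but the share was 9.09% without replicate 1, 9.09% without replicate 2 and 13.6% without replicate 3, closer to the shares of all genes just given. Among the 10 were eIF2A (1.13, 1.17 and 1.53), eIF6, whose product keeps the ribosomal subunits apart (0.624, 2.25 and 0.397), and eIF2alpha (0.991, 1.11 and 1.32). Of 32 aminoacyl-tRNA synthetase genes 6 had one (18.8%; 12.5% without any 1 replicate), and the 3 strongest, IleRS-m, GluRS-m and PheRS-m, all serve mitochondria. The proteasome had 6 of 34 (17.6%), with Rpt1 (2.12, 2.02 and 2.29), Prosalpha5 and Prosbeta7 the strongest, and the share was 11.8% without replicate 1 or without replicate 3. Ubiquitin-conjugating enzymes had 4 of 11 (36.4%, 15.2 to 64.6), among them Ubc2, ben and Ubc6. The interval of this short list is wide, and the share was 27.3%, 18.2% and 18.2% without replicate 1, 2 or 3.

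The remaining housekeeping lists had shares between 3.12% and 15.0%. They were autophagy (3 of 20), sorting proteins of the Vps family (4 of 27), replication licensing and DNA polymerases (4 of 31), RNA polymerase II with TAFs and Mediator (6 of 53), respiratory complex I (4 of 40), Rab GTPases (3 of 36), chromatin remodellers and modifiers (2 of 28), the nuclear pore (1 of 23) and the spliceosome (1 of 32). Leaving out 1 replicate moved several of these shares by over 1.5 times, but the share of all genes, given above, fell as well. Members numbered 1307 in the IDR list, and 793, 1011 and 793 without replicate 1, 2 or 3. Without replicate 1 or 3 the fall over all genes was of about that size. Complex I ranged from 2.5% without replicate 1 to 15% without replicate 2, and Rab GTPases from 5.56% without replicate 3 to 13.9% without replicate 2. Autophagy went to 5% without replicate 1, RNA polymerase II to 5.66% without replicate 1 or 2 and 3.77% without replicate 3, and replication to 6.45% without replicate 3. Chromatin genes had 3.57% without replicate 1 or 2 and 0 without replicate 3, the nuclear pore 0 without replicate 1 or 3, and the spliceosome 0 without replicate 1 or 2. Summits near starts on opposite strands were no members by the rule. Of the mitochondrial ribosomal protein genes, 61 of 73 had some promoter peak of the IDR list, and 20 started with no opposite start within 500 bp. Vps15, the regulatory partner of the lipid kinase Vps34, had the strongest Vps peak, with 8.15, 5.94 and 9.55.

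Among lists of genes with restricted expression the shares differed. There were 0 members at the 115 cuticle protein genes, 31 Jonah and trypsin protease genes and 28 homeobox and segmentation genes, with upper Wilson limits of 3.23%, 11.0% and 12.1%. The list of 230 chemoreceptors and odorant-binding proteins had 1, at Obp99b, which encodes an odorant-binding protein, and 0 without replicate 2 or without replicate 3. The 85 cytochrome P450 genes had 1, at Cyp12b2. A neuronal list of ion channels, synapse genes and elav had 2 of 34: Syt1, for a synaptic vesicle protein, and elav, for an RNA-binding protein of neurons. Its share was 5.88%, and 2.94% without replicate 1. Muscle structure genes had 1 of 24, sls, and 0 without replicate 1 or 2, as did cytochrome P450 genes without replicate 1 or 3. The tracheal list had 3 of 21 (14.3%, 4.98 to 34.6), above the 8.71% of all genes, and 4.76% without replicate 3. They were bnl, a ligand of the FGF receptor (0.633, 0.934 and 1.61), rho, which processes EGF ligands (0.327, 0.5002 and 0.551), and crb, a determinant of apical polarity (0.796, 0.219 and 0.657). rho and crb lay below 1, the median of the strongest peaks, in each replicate, and bnl did in 2 of 3. These lists were set by symbol patterns, with earlier results of these data known, and no test was made on them.

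**Figure D4:**
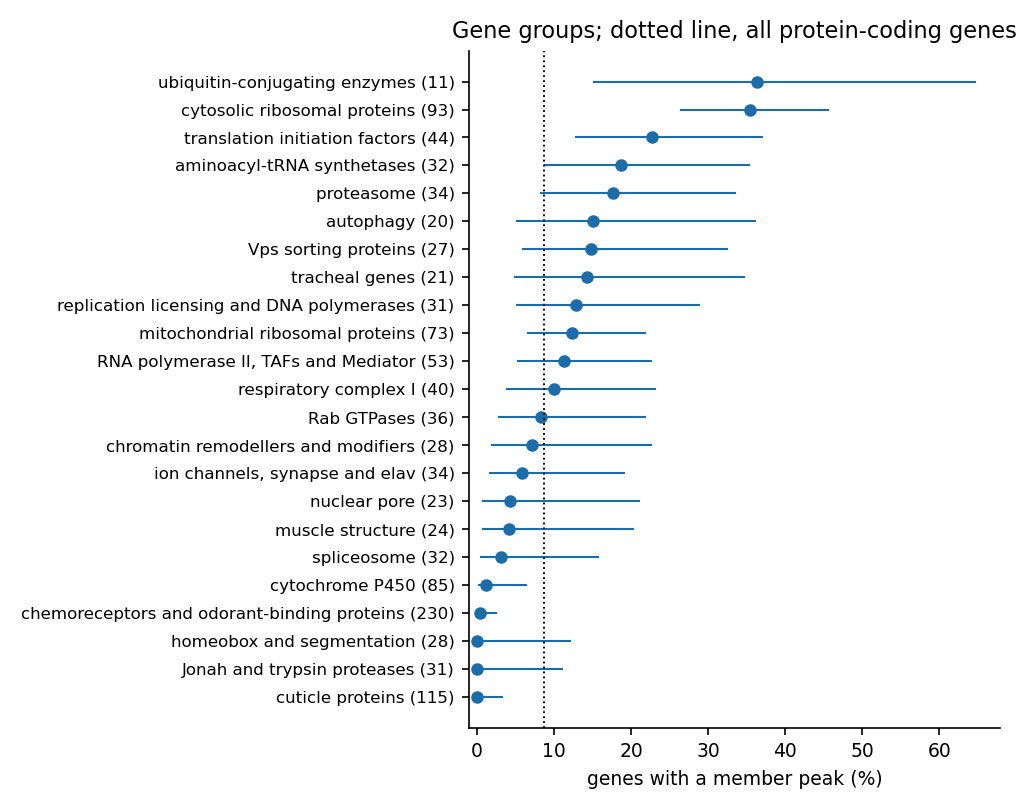
Percent of the genes of each group that had a member, with the number of genes in brackets; points are shares, lines 95% Wilson intervals, and the dotted line marks the 8.71% of all protein-coding genes. Cytosolic ribosomal proteins stand at 35.5%, and cuticle, Jonah and trypsin protease, and homeobox and segmentation genes at 0.

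The gene crp itself had 2 members, with summits 105 and 306 bp downstream of the start. The first had 4.14, 1.98 and 3.55 in replicates 1, 2 and 3. The second, chosen for the GAGA site within 50 bp, had 2.255 in replicate 2 and 6.09 in replicate 3, and replicate 1 had no summit within 100 bp. An E2F site also lay there, and the nearest CAGCTG ended at 62 bp. Whether DNA of the transgene adds to the signal at its own locus was not tested.

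Member summits lay mostly upstream of the start, but spread wider than summits with CAGCTG. Of the 1302 members off the start itself 1017 lay upstream (78.1%, 75.8 to 80.3). The same rule in replicates 1, 2 and 3 gave 66.8%, 83.8% and 64.6%, so the replicates differed by more than the counting interval. The median position was -53 bp, with quartiles at -154.5 and -6 bp. Within 50 bp of the start were 35.1% of members and 59.2% of peaks with CAGCTG. In the replicates the shares were 24.8%, 28.9% and 36.9% of members against 56.8%, 63.6% and 54.8%, which did not overlap. Summits at the exact centre of the peak made up 57.5%, 41.0% and 37.0% of members in the replicates. With CAGCTG the shares at the centre were 20.4%, 14.2% and 11.6%. The part of such summits in the wider spread was not tested.

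**Figure D5:**
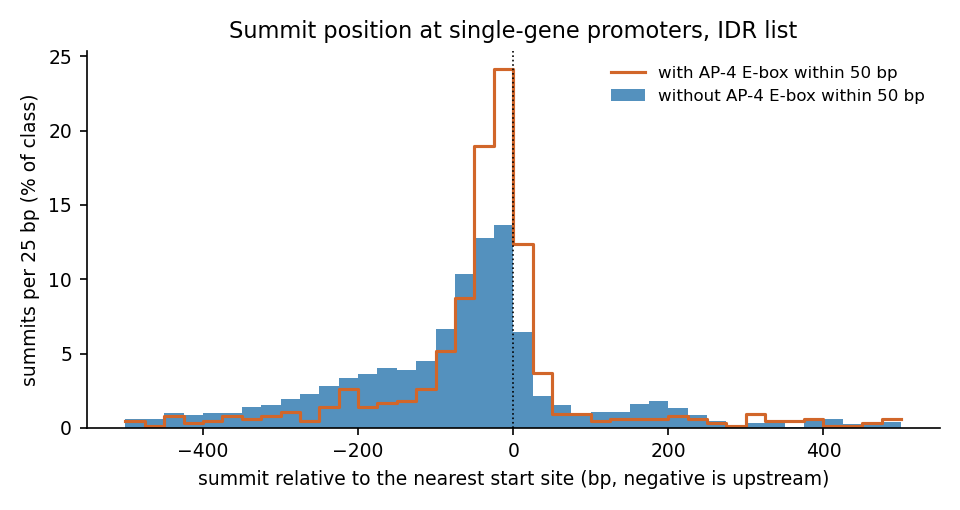
Position of the summit relative to the nearest start in bins of 25 bp, as percent of the class, for the 1307 members (bars) and the 654 single-gene peaks with the AP-4 E-box (line). Both peak just upstream of the start, and members hold more of their summits between -400 and -100 bp.

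Genes with a member were longer and had more starts than genes without a peak. The median gene length was 3355 bp at members, 1375 bp without a peak and 2966 bp at peaks with CAGCTG. Of the genes with a member 37.5% had 2 or more starts, against 10.5% without a peak and 34.7% with CAGCTG. The difference in starts from genes without a peak is partly built in. Those genes had to lack a summit near every start, which genes with more starts meet less easily. Genes with a member had no such condition at their other starts. The size of this part was not tested. The start lay inside another protein-coding gene for 9.78% of members and 23.8% of promoters without a peak. Genes with only a CG number for a name were 29.5% of those with a member and 59.9% of those without a peak. These are descriptions, with no test.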

How the data were processed

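Peaks from chromatin immunoprecipitation of GFP-tagged crp in 3 embryo samples were used as the authors deposited them on dm6: a relaxed list for each replicate and for the pool, and the IDR list. The signal values and −log10 q values were deposited by the authors; the latter took 1 value over the IDR list and were not used. The summit is the deposited offset from the peak start. The labels name no aligner, peak caller or IDR threshold, and the depth is unknown. Per the labels, chromatin was sonicated to 200 to 800 bp and the samples are biological replicates of 1 group.

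Ensembl release 115 supplied the gene starts, and letters came from the RefSeq copy of dm6. Starts of 13968 protein-coding genes and 30 motifs were used. A test needed a site at 10 or more promoters. Logistic regressions were written in numpy and tested on simulated data first. Log2 odds ratios come from that fit. Intervals are 95% Wilson intervals and values over replicates are mean ± SD. P-values over replicates come from the sign-flip test. With 3 replicates it gives 0.25 whenever all log2 values share a sign, whatever their spread.

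The members, motifs and gene lists were chosen with earlier results of these data known. Named genes are the 15 strongest members found in all replicates, the 4 strongest with each of the DRE, M1BP, motif 6, motif 7 and GAGA sites or with none, up to 3 for each list, and 2 on each side of both limits, of which 1 gene is not reported here; other named genes are said to be chosen by value. Alternatives changed the unbound promoters, the window, the start, the G+C term, the limits, the matching distance and the number of peaks, and left out each replicate in turn. Added after seeing the data were members with no CAGCTG within 400 bp, the comparison with promoters that hold CAGCTG, and both comparisons of signal within members. Python 3.11.15, numpy 2.4.6, scipy 1.17.1 and matplotlib 3.10.9 were used.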

Additional observations from a re-analysis of the deposited data

How the results depend on the processing

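The 2730 strongest IDR peaks held 523 members. Without 1 replicate, where summits shared by the other pair replaced the IDR list, there were 793 (without replicate 1, or without replicate 3) to 1011. The share of members found in all 3 replicates was 36.2% with matches within 50 bp, 54.9% within 200 bp, 78.3% in the full lists and 87% among those 2730, and 54.9% to 61.4% over pairs. The share upstream of the start was 68.4% to 82.7% without 1 replicate. The log2 signal ratio to peaks with CAGCTG was -2.13 with a limit of 100 bp, -2.41 with IDR classes matched to each replicate and -2.30 to -2.21 without 1 replicate; dividing by the list mean cannot change it. Motifs less frequent at members numbered 3 in the window of 250 bp on either side and 1 among the 2730 peaks, against 6. Hexamers more and less frequent numbered 178 and 176 there, and 282 were less frequent for members with no CAGCTG within 400 bp. Without 1 replicate 10 to 12 motifs were more and 6 to 7 less frequent, and 223 to 256 and 299 to 354 hexamers. Shorter lists have fewer promoters to test. Of the values of single motifs under the alternatives, 262 stayed on their side of the threshold, 36 fell short of it, 17 newly passed it and 0 changed direction with a call. Depth is unknown, so a promoter without a peak may be one below detection.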
